A study of Mus musculus with 8 samples.

Results

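The genes described here encode the proximal part of T cell receptor signalling: a receptor chain, kinases, phosphatases and adaptors, with a transcription factor of the T cell lineage. They were chosen by name, as the probe sets whose platform annotation gives 1 gene symbol among Cd247, Zap70, Ptprc, Themis, Fyn, Lcp2, Grap2, Inpp5d and Bcl11b. Of these 9 genes, 8 were measured, each by a single probe set, among 6986 genes tested. Cd247, the zeta chain of the receptor complex, was not analysed here. The samples were CD4+CD25+ lymphocytes, which are enriched in regulatory T cells, sorted from para-aortic lymph nodes, which receive lymph from the uterus, on day 9.5 of pregnancy; Balb/c males are named in the labels, without a statement of the mating. One group was 4 arrays labelled Il10-/-, from mutant mice back-crossed through a C57BL/6 colony that were given oxytetracycline at 2 mg/ml in drinking water against colitis. The other was 4 arrays labelled Il10+/+, from C57BL/6 mice, for which no antibiotic is stated, so genotype and antibiotic cannot be told apart. Every array carried RNA of its own pool of 2 to 4 mice.

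When a T cell receptor binds its ligand, Src family kinases phosphorylate the tails of the CD3 and zeta chains. The kinase ZAP-70 docks on these tails and phosphorylates the scaffolds LAT and SLP-76, from which calcium, Ras and actin signals start. Regulatory T cells depend on receptor signals for their development and for their suppressive function, and phosphatases set how strong those signals are.

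Values are log2 expression as the authors deposited them, and a difference is the mean of the arrays labelled Il10-/- minus the mean of those labelled Il10+/+. Il10 itself read 9.35, 8.65, 9.42 and 9.25 in the 4 arrays labelled Il10-/-, against 8.27, 8.51, 8.14 and 7.50 in those labelled Il10+/+. The sources used here do not say which stretch of Il10 the mutation removes, so the probe set checks no label. A pair of arrays stood apart from the rest: Il10-/- replicate 2 scored 16.6 and Il10+/+ replicate 4 scored 17.8 on the first principal component (31.1% of the variance), against -13.3 to -2.7 in the other arrays. Both also had the narrowest spread of values, with interquartile ranges of 2.15 and 2.17, against 2.32 to 2.58 in the others. The reason was not tested. Values without these arrays stand beside the results that they moved most. Olfactory receptor genes, which lymphocytes are not known to use, served as a background: the 95th percentile of their 231 probe sets lay between 6.96 and 7.26 per array, and all 8 measured genes lay above it in all 8 arrays. Of 24 listed T cell markers 4 were measured (Cd28, Icos, Ctla4 and Ikzf2), and all 4 lay above the background in every array. Syk, the relative of ZAP-70 used by B cells and myeloid cells, lay below it in every array. Its values were 6.28 to 6.91 in Il10-/- and 6.37 to 6.75 in Il10+/+. Not all markers of these cells were low. Of 9 B cell markers measured, 3 lay above the background in every array, as did 3 of 9 macrophage and monocyte markers. Cd4 and Il2ra (CD25), which define the sorted fraction, and Foxp3, the transcription factor of regulatory T cells, were not analysed here.

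No proximal signalling gene differed between the groups past the threshold. Of the 8 measured genes, 0 passed limma's test over all genes (every adjusted p = 0.999), where 0.0286% of all genes tested passed, and 0 had an unadjusted p under 0.05, where 4.78% of all genes did. The differences ran from -0.25 for Grap2 to 0.21 for Themis, with a median of -0.12, against a median of 0.00 over all genes tested. The sign was negative for 6 of the 8 genes and for 49.2% of all genes. The median of the 8 was -0.04 without Il10-/- replicate 2 and -0.10 without both arrays that stood apart. Several of these genes went together across arrays (values are given further on), so their signs are not independent. Of all genes tested, 3174 lay below the background in every array, so the values over all genes are not matched for level. All 8 of the 95% intervals held 0, and together they reached from -0.57 (Inpp5d) to 0.49 (Themis), so that a loss below 0.671-fold or a gain above 1.40-fold lay outside the interval of every measured gene. In these bulk samples, fewer cells that express a gene and less RNA of it per cell cannot be told apart.

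**Figure D1:**
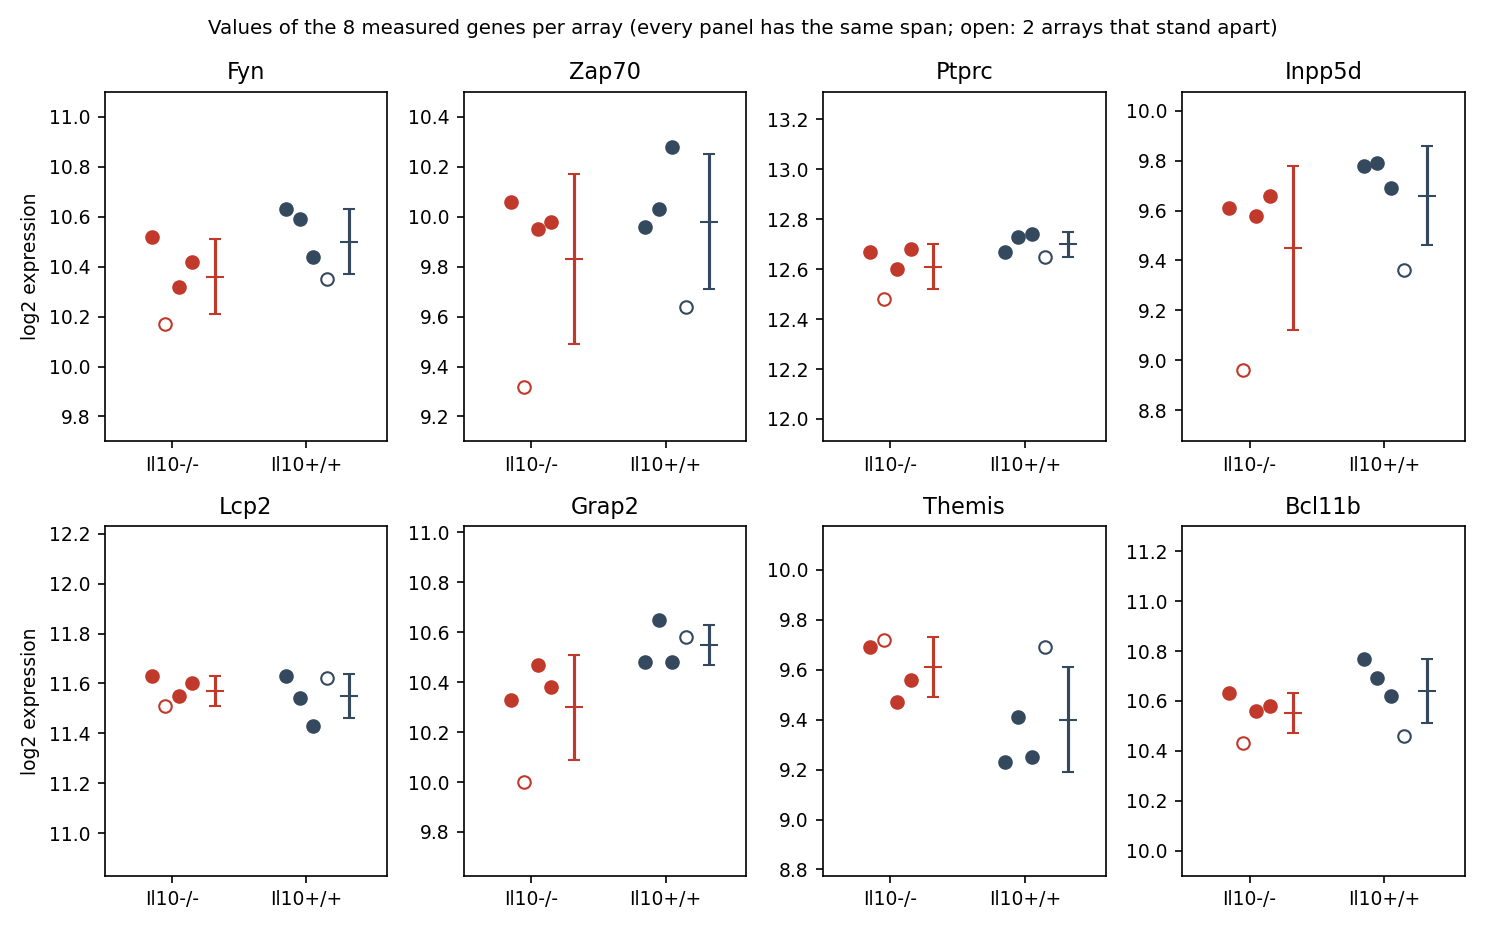
Log2 expression (vertical axes, all of the same span) of the 8 measured genes, 1 point per array, with Il10-/- in red on the left and Il10+/+ in dark blue on the right of each panel, and bars for the mean and SD (n = 4 each). Open points are Il10-/- replicate 2 and Il10+/+ replicate 4; the groups overlap in 7 panels and are 0.01 apart for Grap2.

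The 300 bases around the start of 3 of these genes are printed because of how the genes moved across arrays: Fyn and Bcl11b went up and down together most closely, and Themis went against them (values are given further on). The sequences are RefSeq's, build GRCm38.p6, 5′ to 3′ on the gene's strand, with 250 bases before and 50 after the start. They lie at chr10:39369549-39369848 on the plus strand (Fyn), chr12:108003365-108003664 on the minus strand (Bcl11b) and chr10:28668110-28668409 on the plus strand (Themis, the first of its 2 starts in the table). Capitals mark matches, on either strand, to AGGAAG (a core read by ETS factors) or TGTGGT (a core read by RUNX factors). Matches to these letters can share a base at their ends.
Fyn: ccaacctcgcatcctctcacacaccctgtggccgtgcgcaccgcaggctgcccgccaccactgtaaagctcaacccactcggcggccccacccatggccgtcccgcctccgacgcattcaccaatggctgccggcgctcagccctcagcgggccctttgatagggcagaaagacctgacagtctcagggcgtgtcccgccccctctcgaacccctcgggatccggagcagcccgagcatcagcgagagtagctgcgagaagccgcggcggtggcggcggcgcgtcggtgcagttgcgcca
Bcl11b: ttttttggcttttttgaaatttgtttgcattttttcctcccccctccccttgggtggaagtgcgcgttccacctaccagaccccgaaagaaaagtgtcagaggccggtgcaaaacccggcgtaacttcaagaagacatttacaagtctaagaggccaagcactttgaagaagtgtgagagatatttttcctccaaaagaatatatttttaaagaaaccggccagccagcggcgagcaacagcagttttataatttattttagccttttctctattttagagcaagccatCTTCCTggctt
Themis: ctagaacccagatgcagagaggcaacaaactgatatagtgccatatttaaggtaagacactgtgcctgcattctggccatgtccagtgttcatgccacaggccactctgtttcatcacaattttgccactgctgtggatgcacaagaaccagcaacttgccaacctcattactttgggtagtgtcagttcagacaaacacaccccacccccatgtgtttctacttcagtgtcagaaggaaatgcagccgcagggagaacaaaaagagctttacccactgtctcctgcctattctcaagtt

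The 3 windows differ in make-up. That of Fyn is 69.0% G and C with 31 CpG sites, that of Bcl11b 43.0% with 9, and that of Themis 47.3% with 1, where all 32851 windows of the table have medians of 52.7% and 7. The ETS letters occur once in the Bcl11b window, among the bases after the start, and in neither of the others. Over the 8 measured genes, 7 of 12 windows, from 5 genes (Bcl11b, Inpp5d, Lcp2, Ptprc and Zap70), held the ETS letters, against 35.4% of all windows. Windows of a gene can overlap, and those of Ptprc share 1 of these matches, so it was counted in both. The RUNX letters were in 1 of the 12, a window of Zap70, against 16.8% of all windows. The windows of Fyn and Bcl11b shared neither set of letters.

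Among the kinases, Fyn encodes a Src family kinase that phosphorylates the receptor tails beside Lck. Its values were 10.52, 10.17, 10.32 and 10.42 in the arrays labelled Il10-/-, against 10.63, 10.59, 10.44 and 10.35 in those labelled Il10+/+. The ranges overlapped, with the lowest value in Il10-/- replicate 2 and, within the Il10+/+ group, in replicate 4. The difference was -0.15 (SE 0.11, exact permutation p = 0.171, two-sided), with a 95% interval of -0.40 to 0.10. It was -0.08 without Il10-/- replicate 2 and -0.13 without both arrays that stood apart.

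Zap70, the kinase that docks on the phosphorylated tails, was the measured gene with the widest spread. The arrays labelled Il10-/- read 10.06, 9.32, 9.95 and 9.98, against 9.96, 10.03, 10.28 and 9.64 in those labelled Il10+/+. Both groups thus held 1 array well below its fellows, and these were the same arrays that stood apart over all genes. Zap70 averaged 9.83 ± 0.34 in Il10-/- and 9.98 ± 0.27 in Il10+/+ (SD, n = 4 each), with a difference of -0.15 (SE 0.18, exact permutation p = 0.600) and a 95% interval of -0.55 to 0.26. Without Il10-/- replicate 2 the sign turned, to 0.02. Leaving out both low arrays gave 10.00 ± 0.06 in Il10-/- and 10.09 ± 0.17 in Il10+/+ (SD, n = 3 each), with a difference of -0.09 (SE 0.12).

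Among the phosphatases, Ptprc encodes CD45, the transmembrane phosphatase that removes the inhibitory phosphate from Src family kinases. It read 12.67, 12.48, 12.60 and 12.68 in the arrays labelled Il10-/-, against 12.67, 12.73, 12.74 and 12.65 in those labelled Il10+/+. Its values spread little in both groups, with an SD of 0.09 in Il10-/- and 0.05 in Il10+/+. The difference was -0.09 (SE 0.09, exact permutation p = 0.143), and the 95% interval, -0.30 to 0.11, corresponds to 0.814-fold to 1.08-fold. Without Il10-/- replicate 2, the lowest array, the difference was -0.05. One probe set covers the gene, so the splice forms of CD45 were not resolved.

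Ptprc lies on chromosome 1, as do Il10, Zap70 and Inpp5d. Between Ptprc and Il10 in the order of tested genes there were 99 others, against 191 for Inpp5d and 541 for Zap70. Ctse, with 8 tested genes between it and Il10, read 11.67 ± 0.12 in Il10-/- and 8.83 ± 0.19 in Il10+/+ (SD, n = 4 each), a difference of 2.84 (limma, adjusted p = 8.33e-07), far outside the range of these 3 genes.

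Inpp5d encodes SHIP1, a phosphatase of inositol lipids that dampens signals running through PI3-kinase in blood cells. The values were 9.61, 8.96, 9.58 and 9.66 in Il10-/- and 9.78, 9.79, 9.69 and 9.36 in Il10+/+. As for Zap70, the array low in each group was the one that stood apart. The difference was -0.20 (SE 0.17, exact permutation p = 0.429), and it came to -0.04 without Il10-/- replicate 2 and to -0.30 without Il10+/+ replicate 4. Without both, the remaining arrays did not overlap, at 9.62 ± 0.04 in Il10-/- and 9.75 ± 0.06 in Il10+/+ (SD, n = 3 each), a difference of -0.14 (SE 0.10, limma, adjusted p = 0.940). Leaving out the lowest array of each group narrows the spread by itself, and Il10+/+ replicate 4 was the array that overlapped.

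Of the adaptors, Lcp2 encodes SLP-76, a scaffold that gathers further signalling proteins after phosphorylation by ZAP-70. It gave 11.63, 11.51, 11.55 and 11.60 in Il10-/-, against 11.63, 11.54, 11.43 and 11.62 in Il10+/+. The groups lay on top of each other. The difference was 0.02 (SE 0.09, exact permutation p = 0.743), with a 95% interval of -0.18 to 0.23, or 0.880-fold to 1.17-fold. Its sign turned, to -0.02, without Il10+/+ replicate 3.

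Grap2 encodes Gads, the adaptor that ties SLP-76 to LAT. Its values were 10.33, 10.00, 10.47 and 10.38 in the arrays labelled Il10-/-, against 10.48, 10.65, 10.48 and 10.58 in those labelled Il10+/+. It was the 1 measured gene of 8 without overlap between the groups, with all 4 Il10-/- arrays lower, as for 1.09% of all genes tested, but the gap between highest and lowest was only 0.01. Grap2 averaged 10.30 ± 0.21 in Il10-/- and 10.55 ± 0.08 in Il10+/+ (SD, n = 4 each), and the difference was -0.25 (SE 0.12), or 0.841-fold, with a 95% interval of -0.51 to 0.01. By exact permutation p was 0.0286, which is as low as 4 arrays against 4 allow, while limma gave an unadjusted p of 0.0578 and an adjusted p of 0.999. Much of the difference sat in 1 array: without Il10-/- replicate 2 it was -0.15.

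Themis, a T cell protein that binds the adaptor Grb2 and tunes receptor signals during selection in the thymus, was the only measured gene besides Lcp2 with a positive difference. It read 9.69, 9.72, 9.47 and 9.56 in Il10-/-, against 9.23, 9.41, 9.25 and 9.69 in Il10+/+. The arrays labelled Il10-/- lay above 3 of the 4 labelled Il10+/+, and the exception was replicate 4. Themis averaged 9.61 ± 0.12 in Il10-/- and 9.40 ± 0.21 in Il10+/+ (SD, n = 4 each), with a difference of 0.21 (SE 0.12, exact permutation p = 0.143), or 1.16-fold, with a 95% interval of -0.06 to 0.49. Leaving out Il10-/- replicate 2 and Il10+/+ replicate 4 gave a difference of 0.28 (SE 0.11) with no overlap, an unadjusted p of 0.0356 and an adjusted p of 0.850 by limma.

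In those 6 arrays, 1 of the 8 genes (Themis) was higher in every Il10-/- array than in every Il10+/+ array, against 5.78% of all genes, and 2 (Grap2 and Inpp5d) were lower, against 4.90%. With 8 genes, a single gene is a larger share than either of these.

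Bcl11b is not a signalling protein but a zinc finger transcription factor needed for commitment to and upkeep of the T cell lineage. It measured 10.63, 10.43, 10.56 and 10.58 in Il10-/-, against 10.77, 10.69, 10.62 and 10.46 in Il10+/+. The groups overlapped, and Il10+/+ replicate 4 lay below 3 of the 4 Il10-/- arrays. The difference was -0.08 (SE 0.10, exact permutation p = 0.314), with a 95% interval of -0.31 to 0.14. Single arrays moved it both ways: it was -0.04 without Il10-/- replicate 2 or without Il10+/+ replicate 1, and -0.14 without Il10+/+ replicate 4.

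**Figure D2:**
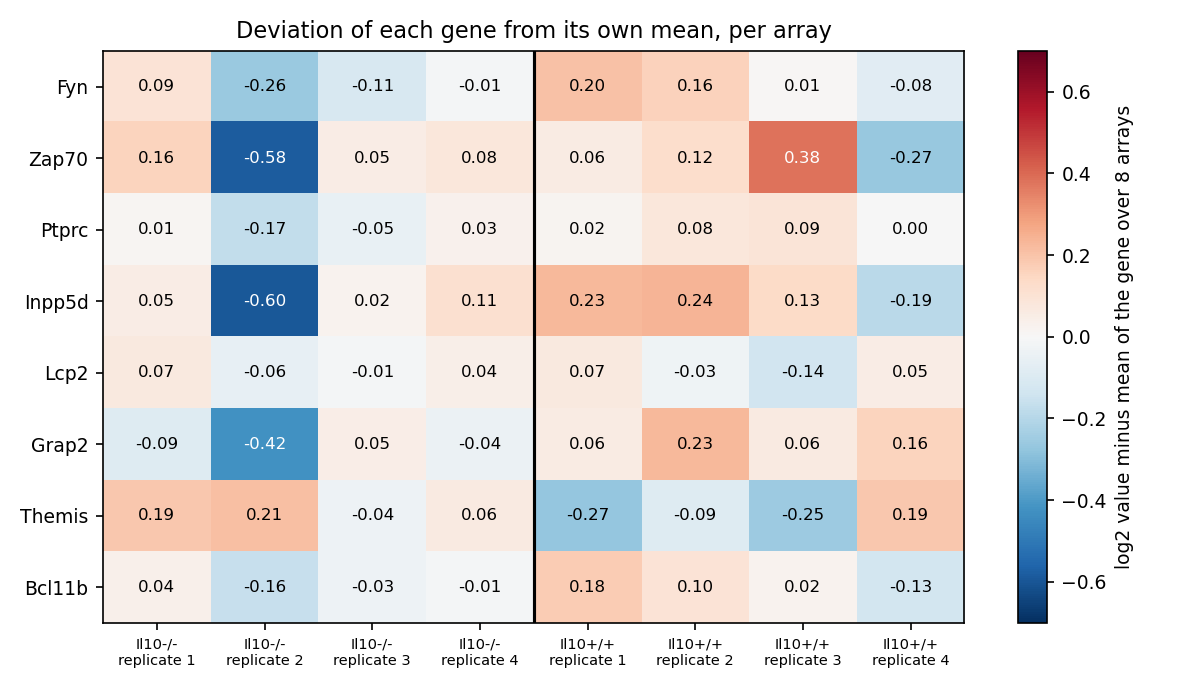
Log2 value of each gene minus its own mean over the 8 arrays (colour and printed number), for the 8 measured genes (rows) in the 4 Il10-/- arrays (left of the line) and the 4 Il10+/+ arrays (right of it). Il10-/- replicate 2 is the lowest array for 6 genes and the highest for Themis.

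Single arrays stood out in these values. Il10-/- replicate 2 was the lowest of the 8 arrays for 6 of the 8 genes (Fyn, Zap70, Ptprc, Inpp5d, Grap2 and Bcl11b), and its average deviation over the 8 genes was -0.25. The other arrays averaged between -0.03 and 0.10. In that array 12 of 24 other receptor pathway genes were also at their lowest, and so were 25.4% of genes above background in all arrays, while the median gene tested was 0.05 above its mean. The same array had the lowest summed T cell marker signal, at 13.12. The other Il10-/- arrays gave 13.21 to 13.28 and the Il10+/+ arrays 13.22 to 13.31. Il10-/- replicate 2 also had the highest sum of the B cell panel, at 11.08, and of the macrophage and monocyte panel, at 10.89. For the B cell panel, Il10-/- replicate 3 was close, at 11.04. Il10+/+ replicate 4, also low for Zap70 and Inpp5d, gave 13.25, 10.78 and 10.37 for T cell, B cell and macrophage markers. The plasma cell panel was at its lowest, 10.4, in both Il10-/- replicate 2 and Il10+/+ replicate 4. The part of such cells in the low values was not tested.

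The ranges of the B cell panel and of the macrophage and monocyte panel overlapped between the groups. Of the B cell panel, 9 of 19 markers were measured, 3 of them above and 4 below the background in every array. It summed to between 10.78 and 11.08 in Il10-/- and between 10.78 and 10.98 in Il10+/+. Of the macrophage and monocyte panel, 9 of 22 were measured, 3 of them above and 3 below the background in every array. It summed to between 10.36 and 10.89 in Il10-/- and between 10.37 and 10.69 in Il10+/+. Marker by marker, 7 of the 9 B cell markers were higher in Il10-/-, with a median difference of 0.13. So were 6 of the 9 macrophage and monocyte markers (median 0.09) and 1 of the 4 T cell markers (median -0.10). Whether these directions bear on the signalling genes was not tested. CD45 and SHIP1 are made by most blood cells, so Ptprc and Inpp5d can be read from these cells too. The 5 other panels (plasma cell, neutrophil, dendritic cell, CD8 T and NK cell, and stroma) overlapped between the groups as well, and 0 markers of any panel passed the threshold. These panels say little. The dendritic cell panel was Batf3 alone of 12 listed, and the CD8 T and NK cell panel was 3 of 12. Of 7 neutrophil markers measured 4 lay below the background in every array, as did 5 of 7 stroma markers.

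Across the 8 arrays, which share 2 groups and the arrays that stood apart, Pearson's r between the 28 pairs of measured genes ran from -0.75 to 0.94, with a median of 0.54. Fyn and Bcl11b had the highest r, 0.94, and it was still 0.94 in the 6 arrays left without those that stood apart. Zap70 and Inpp5d had an r of 0.89 that came to 0.00 in the 6 arrays. Themis had a negative r with 6 of the 7 others, from -0.75 with Bcl11b to -0.49 with Grap2, and 0.33 with Lcp2. The median of these 7 pairs was -0.58, and it came to -0.37 in the 6 arrays. There the r of Themis was -0.52 with Bcl11b and only -0.27 with Fyn. Over the 6 arrays the median of all pairs was 0.16.

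The further pathway from receptor to calcium and Ras signals was described by a list of 109 other genes, of which 24 were measured. These 24 lie on chromosome 1 or on chromosomes 10 to 15, so they are a part of the pathway. None passed limma's test over all genes in either direction (lowest adjusted p = 0.999), and 0 of 24 had an unadjusted p under 0.05, where 4.78% of all genes did. None was without overlap between the groups, where 1.83% of all genes were higher and 1.09% lower without overlap, so counts of 0 or 1 among 24 genes are close to that background. The differences ran from -0.20 to 0.14 with a median of -0.06, and 15 of 24 were negative. Cd3e, Lck and Lat, which work directly beside the genes above, were not analysed here.

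The lowest differences were those of Evl, an actin regulator (-0.20, SE 0.11), the adaptor gene Dok3 (-0.18, SE 0.11), the small GTPase gene Rac2 (-0.18, SE 0.17) and Lax1, a membrane adaptor that restrains receptor signals (-0.17, SE 0.21). Dok3 lay below the background in all 8 arrays, so its value carries little information, and Rac2 came to 0.00 without Il10-/- replicate 2. Lax1 came to 0.00 without Il10+/+ replicate 2 and to -0.07 without Il10-/- replicate 2, and Evl to -0.10 without both arrays that stood apart. The highest were those of Skap1 (0.14, SE 0.12) and Fyb (0.12, SE 0.14), adaptors that link the receptor to integrins, and of Ppp3cc (0.10, SE 0.12) and Ppp3cb (0.10, SE 0.11), catalytic subunits of calcineurin. These too rested on single arrays: Skap1 and Fyb were each 0.04 without Il10-/- replicate 2, Fyb was 0.04 and Ppp3cc 0.01 without Il10+/+ replicate 3, and Ppp3cb was 0.04 without Il10-/- replicate 4. Evl read 10.59, 10.33, 10.51 and 10.52 in Il10-/-, against 10.74, 10.52, 10.65 and 10.82 in Il10+/+. Skap1 read 10.06, 10.51, 10.17 and 10.10 in Il10-/-, against 10.09, 10.03, 9.96 and 10.19 in Il10+/+. Both pairs of groups overlapped.

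**Figure D3:**
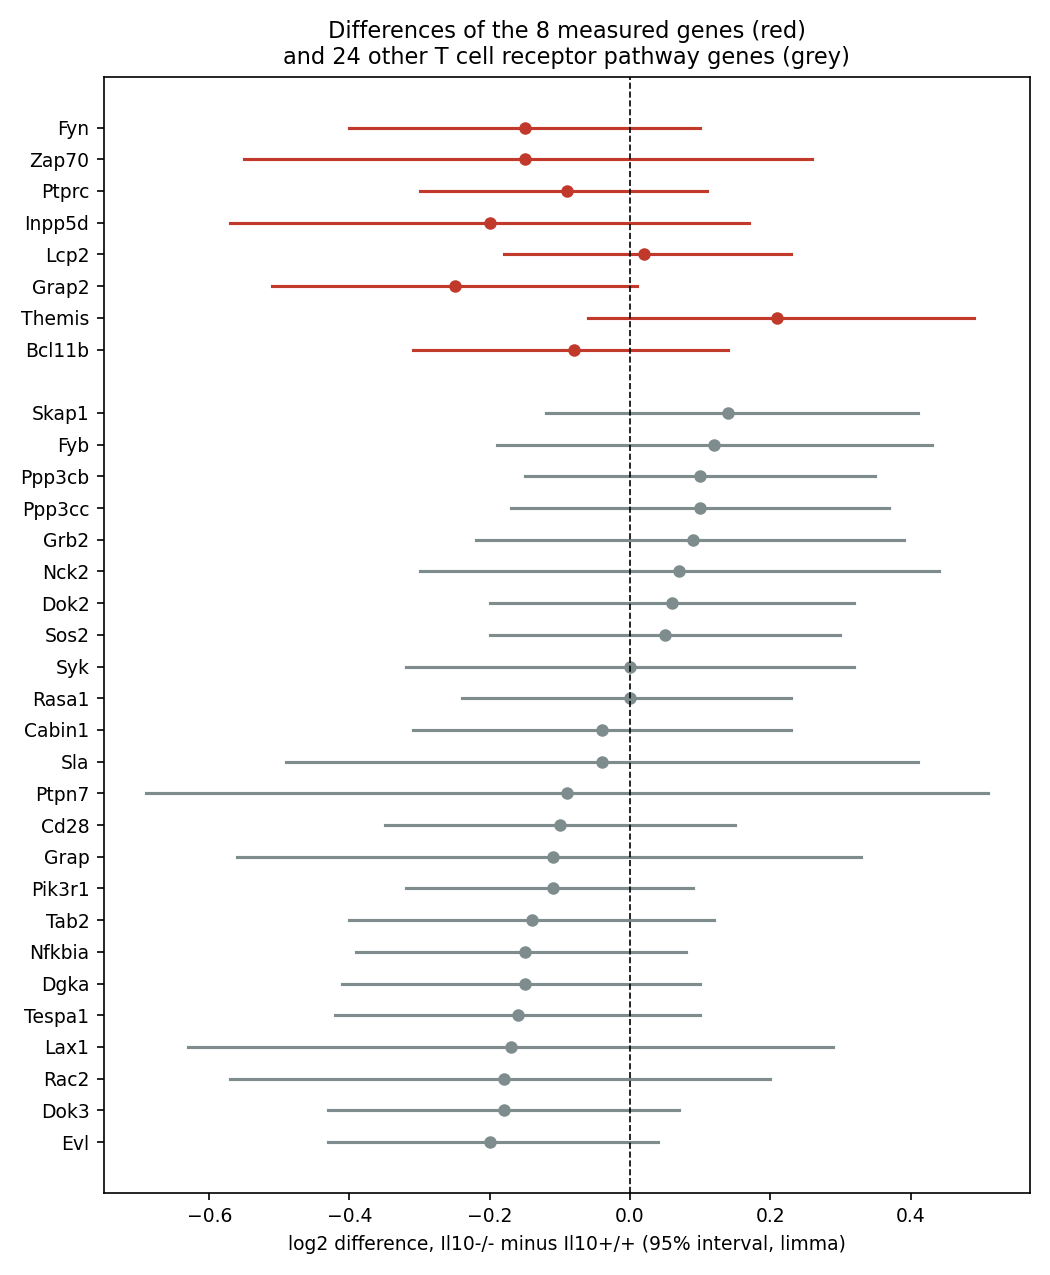
Log2 difference, Il10-/- minus Il10+/+ (horizontal axis), with its 95% interval from limma, for the 8 measured proximal signalling genes (red, top) and 24 other receptor pathway genes (grey). Every interval holds 0; the points run from -0.25 (Grap2) to 0.21 (Themis).

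**Figure D4:**
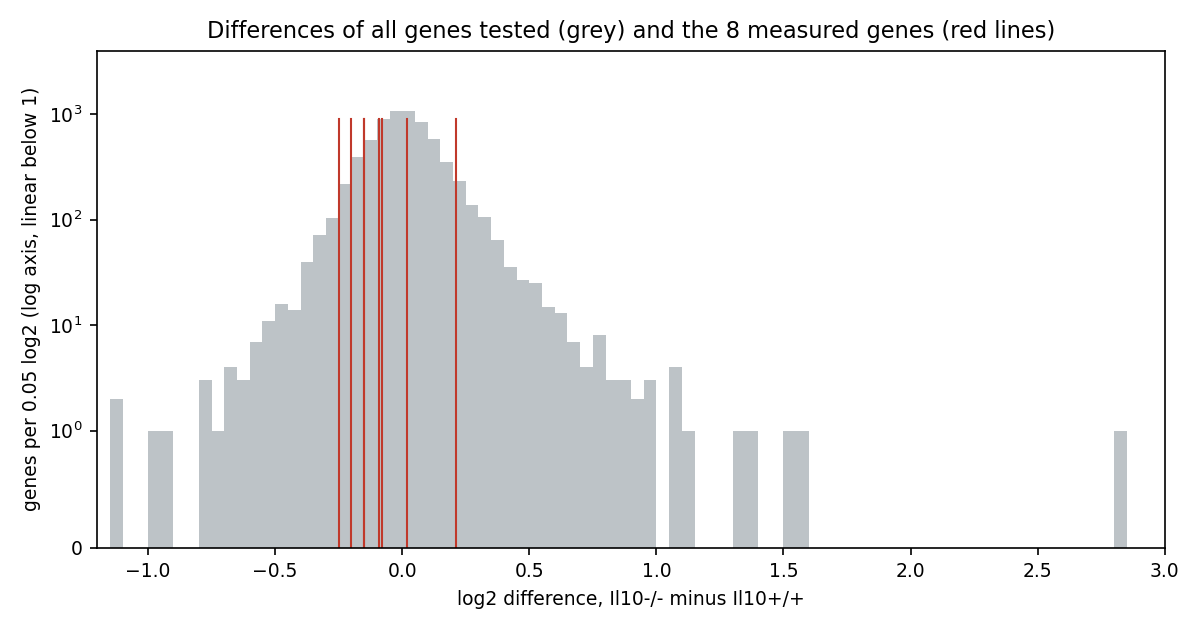
Number of genes (vertical axis, log scale, linear below 1) by log2 difference, Il10-/- minus Il10+/+ (horizontal axis), for all 6986 genes tested, with red lines at the differences of the 8 measured signalling genes (Fyn and Zap70 share a line at -0.15). The 8 genes lie between -0.25 and 0.21, with a median size of 0.15 against 0.09 for all genes, while Ctse lies alone at 2.84. The 2 medians are not matched for level. All 8 genes lay above the background in every array, while 3174 of all genes lay below it in every array.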

How the data were processed

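Gene expression was measured on 8 Affymetrix Mouse Gene 2.0 ST arrays. The deposited values are log2 expression that the authors made from scanner files in Partek, by RMA background correction, correction for GC content and probe averaging, per the series' design text; Affymetrix Expression Console is also named, per the submitters' processing notes. The sources used here give no versions, genome build or log base; log2, the scale of RMA, fits the range. Of 16378 probe sets, 7358 were named with 1 gene, 456 with several and 8564 with none in the platform annotation. Symbols were updated by Entrez identifier (7310 matched RefSeq, GRCm38.p6), and the brightest probe set was kept per gene, which left 6986 genes. Of these, 1222 lie on chromosome 1. All measured signalling and pathway genes lie on chromosome 1 or on chromosomes 10 to 15. Shares of all genes are thus shares of the genes tested, which need not stand for the whole genome.

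A linear model without a block was fitted per gene over all 8 arrays with limma 3.58.1 (lmFit, eBayes) in R 4.3.3, with Benjamini-Hochberg adjustment over all genes at a threshold of 0.05. It was checked on simulated data with noise drawn independently per gene and array. Those data lack the pattern shared by the arrays that stood apart, so the check does not cover it. Single genes also had a two-sided exact permutation test over arrays (scipy 1.17.1). The number of arrays limits the precision. Named genes were the 9 listed, pathway genes past the threshold, the 4 pathway genes with the largest difference in each direction, Il10 and Ctse, and the genes most like each listed gene; Syk and the other markers were named after their values were seen. Panel sums are log2 of summed linear signals. The genes and lists were chosen with earlier results of these data known. Alternatives were quantile normalization, median centring, a low signal filter, trended robust variance, array weights, testing all probe sets, averaging probe sets, a replicate block, and leaving out arrays.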

Additional observations from a re-analysis of the deposited data

Results flagged for a closer look

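Zap70 at 9.32 and Inpp5d at 8.96 in Il10-/- replicate 2 each lay far below the other 3 arrays of their group, with gaps of 0.856 and 0.875 of the group's whole range. Of 16 gene and group combinations checked, these were the 2 picked out by Dixon's criterion, which picks about 5% of groups by chance. Both values come from 1 array, so they are not independent of each other.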

How the results depend on the processing

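Under 17 alternatives, 0 of the 8 measured genes and 0 of the 24 other pathway genes passed the threshold, and the lowest adjusted p of a measured gene was 0.689 (limma, Themis without Il10+/+ replicate 4, 7 arrays). The sign was kept in 134 of 136 recomputed differences of these 8 genes. The exceptions were Zap70, which ran from -0.26 to 0.02 as single arrays were left out, and Lcp2, from -0.02 to 0.05. Rac2 ran from -0.29 to 0.00. Zap70 and Rac2 changed sign without Il10-/- replicate 2, and Lcp2 without Il10+/+ replicate 3. The median of the 8 genes ran from -0.17 (without Il10+/+ replicate 4) to -0.04 (without Il10-/- replicate 2). The count over all genes, 2 in the fit reported (Ctse and Efcab2), was 1 with median centring, array weights, all probe sets tested, the replicate block and without both arrays that stood apart, 3 with trended robust variance, and between 1 and 4 (without Il10-/- replicate 3) with single arrays left out; the cause was not tested. Same-numbered arrays did not deviate together (correlations 0.053, -0.321, 0.027 and -0.186 for numbers 1 to 4). No label says whether the numbers pair the pools. These correlations cannot decide it, because the 2 arrays that stood apart carry different numbers. With the replicate block the median of the 8 genes was again -0.12. Levels near the background, as for Dok3 and Syk, limit what can be read from them.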

Other observations

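The genes whose values followed each signalling gene most closely over the 8 arrays were sought among 3339 others above the background, and a high r is given by taking the best of so many. For Fyn they were Spin1 (r = 0.965, and 0.943 in the 6 arrays without those that stood apart) and Retreg2 (0.964 and 0.934). For Bcl11b they were Rnf44 (0.980 and 0.946) and Nbr1 (0.976 and 0.954). Ptprc went with Osm (0.979 and 0.956) and Senp3 (0.974 and 0.946), and Zap70 with Nol11 (0.987 and 0.899) and Btg2 (0.983 and 0.902). Themis went with Metap2 (0.952 and 0.972) and Cdyl (0.935 and 0.922), and Lcp2 with Asb13 (0.961 and 0.975) and Ptrhd1 (0.903 and 0.932). The likeness of Grap2 to Atxn1 (0.931) and of Inpp5d to Trib2 (0.979) came to 0.756 and 0.717 in the 6 arrays, whereas Grap2 with Atp2a3 (0.960 and 0.944) and Inpp5d with Mapk1ip1l (0.981 and 0.896) moved less. The 6 arrays are among the 8 by which these genes were chosen, so the r over them is not an independent check.

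Without the 2 arrays that stood apart, 4 of the 24 other pathway genes had groups that did not overlap, chosen here after their values were seen. Grb2, the adaptor that Themis binds, was higher in the Il10-/- arrays by 0.20, while Tespa1, an adaptor-like protein of developing T cells, Dok3 and Nfkbia differed by -0.25, -0.20 and -0.24 (limma, adjusted p from 0.857 to 0.875). These shares, 1 gene higher and 3 lower, stand beside 5.78% and 4.90% of all genes.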
